A study of Mus musculus with 4 samples.

Results

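The Hedgehog pathway genes examined here, in dermal papilla cells sorted from mouse skin at postnatal day 5, were Ptch1, Hhip, Boc, Cdon, Gas1, Smo, Gli1, Gli2 and Gli3. They were chosen by name, as the probe sets whose platform annotation listed one of these 9 genes and no other. Each of the 9 was measured by 1 probe set, and they were 9 of 19938 genes measured. The dermal papilla is the knot of mesenchyme that the hair bulb encloses. Cells were isolated by flow sorting for a green fluorescent protein reporting Sox2 and for integrin alpha 9, and both groups therefore carried the Sox2 reporter. One group was labelled Sox2 Het, heterozygous for the transcription factor gene Sox2, and the other Sox2 cKO, a conditional knockout of Sox2. There were 2 arrays per group, titled biological replicate 1 and 2. The driver of the knockout, the sex of the animals and whether cells of several animals were pooled are not stated in the labels used here. The p-values measure only the spread between these samples, which may be technical.

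Patched1 is the receptor for the secreted Hedgehog proteins, and in their absence it holds the membrane protein Smoothened in check. Ligand binding, aided by the co-receptors BOC, CDON and GAS1, releases Smoothened, which acts in the primary cilium to switch the GLI transcription factors from repression to activation. Gli1, Ptch1 and Hhip are themselves induced by the pathway, and their RNA is widely used as a readout of it. In the hair follicle the ligand Sonic hedgehog is made by the epithelium and acts on the epithelium and on the neighbouring papilla.

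The deposited values are on a log scale, taken as log2, and the median of every probe set across the 4 arrays had been set to 0. They show how far an array lies above or below the others and hold no expression level. The labelled cell type could therefore not be checked by whether its defining markers were present. With 4 arrays, this centring places the 2 middle arrays of each probe set at equal distances on either side of 0, and so also of each of the 9 genes. Sox2 itself was lower in cKO: the Het arrays read 0.96 and 0.87 and the cKO arrays -0.87 and -0.94 (replicates 1 and 2 in that order, here and below). Its difference, -1.81 ± 0.056 (SE; limma, adjusted p = 0.34), did not pass the test over all genes, although Sox2 is the deleted gene. Itga9, the integrin gene of the sort, overlapped between the groups, at 0.19 and -0.062 in Het and -0.21 and 0.062 in cKO. The sex-linked genes also separated the groups: Xist, which silences an X chromosome in females, read -4.08 and -0.85 in Het against 0.85 and 1.23 in cKO. The Y-linked gene Eif2s3y stood at 1.18 and 0.79 in Het and at -0.87 and -0.79 in cKO. The part of these differences in the results that follow was not tested.

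The 3 genes whose values spread most over the 4 arrays were Ptch1, Smo and Hhip, and the 250 bases before a RefSeq transcription start of each are shown here as the sequence context of these genes (assembly GRCm38.p6, 5′ to 3′ on the gene's strand). Capitals mark the core of the GLI recognition sequence, CCACCC, or its reverse complement GGGTGG.
Ptch1, chr13:63565736-63565985, strand minus: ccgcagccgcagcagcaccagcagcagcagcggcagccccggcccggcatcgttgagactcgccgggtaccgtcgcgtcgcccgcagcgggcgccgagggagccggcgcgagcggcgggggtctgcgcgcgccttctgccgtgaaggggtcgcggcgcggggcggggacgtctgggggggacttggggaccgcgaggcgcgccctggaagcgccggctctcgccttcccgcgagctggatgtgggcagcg
Hhip, chr8:80058009-80058258, strand minus: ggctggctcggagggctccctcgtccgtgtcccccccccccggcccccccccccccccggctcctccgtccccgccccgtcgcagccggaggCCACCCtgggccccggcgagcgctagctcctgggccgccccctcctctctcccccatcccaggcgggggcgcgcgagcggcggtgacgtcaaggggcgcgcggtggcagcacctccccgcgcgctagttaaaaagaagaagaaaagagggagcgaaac
Smo, chr6:29735247-29735496, strand plus: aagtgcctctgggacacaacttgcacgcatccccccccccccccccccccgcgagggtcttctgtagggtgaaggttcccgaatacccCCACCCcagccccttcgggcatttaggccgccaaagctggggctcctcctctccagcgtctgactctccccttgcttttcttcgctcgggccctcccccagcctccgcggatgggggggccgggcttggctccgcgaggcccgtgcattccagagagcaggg
The Hhip and Smo stretches each held the core 1 time and the Ptch1 stretch held it 0 times. Of the 9 genes, 7 were matched in the RefSeq promoter table, and the core was found on either strand in 4 of these 7: 2 times in Gli2 and 1 time each in Gli3, Hhip and Smo. Over all 32851 promoter windows of this length, 28.1% held the core. The full consensus GACCACCCA, or its reverse complement TGGGTGGTC, which contains the core, was in 0 of the 7 stretches and in 0.225% of all windows. A match is a match of letters only, and the table holds no measure of GLI binding.

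No gene of the 9 passed the test between cKO and Het. Ptch1 and Smo differed most, Ptch1 being on average 1.29-fold higher and Smo 1.28-fold lower in cKO. The other genes lay within 0.21 on the log2 scale. Of the 9, 6 had a higher and 3 a lower mean in cKO, and the median difference was 0.049, against 0.0034 over all genes. In limma's test with Benjamini-Hochberg adjustment over all genes, 0 of 9 passed, the smallest adjusted p being 0.95, and 0 of 9 lay under an unadjusted p of 0.05. Among all 19938 genes the count of passes was 0 (0%), and the unadjusted p was under 0.05 in 1053 (5.28%). The unmoderated statistic also called 0 genes, with 937 under an unadjusted p of 0.05. In whole sorted populations, fewer cells expressing a gene and less RNA per cell cannot be told apart.

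**Figure D1:**
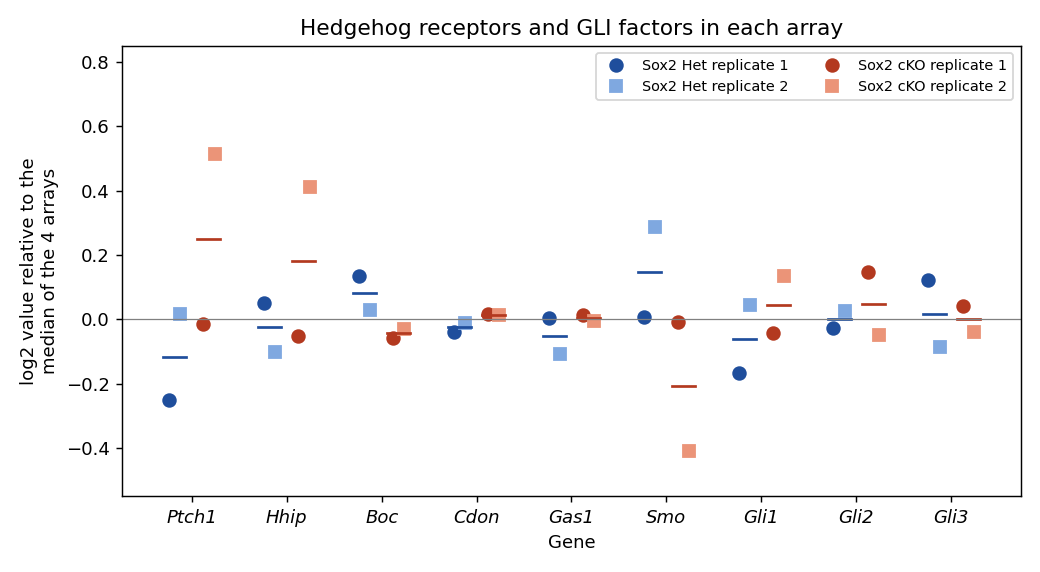
Log2 value of each of the 9 genes (x axis) relative to its median over the 4 arrays (y axis). Points are single arrays, blue for Sox2 Het and red for Sox2 cKO, and short lines are group means. Ptch1 and Hhip stand highest, and Smo lowest, in cKO replicate 2, at 0.51, 0.41 and -0.41.

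The receptor gene Ptch1, whose product both receives the signal and restrains it, had a value of -0.25 in Het replicate 1 and 0.016 in Het replicate 2. It stood at -0.016 in cKO replicate 1 and 0.51 in cKO replicate 2. A single cKO array was thus high, and the remaining cKO array lay between the Het arrays, so that the groups overlapped. The difference, cKO minus Het, was 0.37 ± 0.23 on the log2 scale (SE, n = 2 arrays per group), with an adjusted p of 0.98 by limma. The Het arrays had an SD of 0.19 and the cKO arrays of 0.37. Without cKO replicate 2 the difference was 0.10, and without cKO replicate 1 it was 0.63.

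Hhip, which encodes a membrane-anchored protein that binds Hedgehog ligands and limits their reach, behaved likewise in that 1 array stood apart. Its values were 0.052 and -0.10 in the Het arrays, -0.052 in cKO replicate 1 and 0.41 in cKO replicate 2. The high array was the one in which Ptch1 was high, and the other 3 arrays lay within 0.152 of each other. The difference was 0.21 ± 0.19 (SE, n = 2 arrays per group; limma, adjusted p = 0.99), and without cKO replicate 2 it changed sign to -0.027.

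The co-receptor genes varied less. Boc, whose product binds ligand and presents it to Patched1, stood at 0.13 and 0.030 in Het and at -0.058 and -0.030 in cKO. Both cKO arrays were below both Het arrays, the nearest pair being 0.060 apart. The difference was -0.13 ± 0.053 (SE; limma, adjusted p = 0.95), the smallest adjusted p of the 9 genes, or 1.09-fold lower in cKO.

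Cdon, which encodes a co-receptor of the same immunoglobulin superfamily subgroup as Boc, had the opposite order. It was at -0.038 and -0.012 in Het and at 0.018 and 0.012 in cKO, so that the groups did not overlap and lay 0.024 apart. All 4 arrays fell within a range of 0.056, and 84.4% of all genes had a wider range. The difference was 0.040 ± 0.036 (SE; limma, adjusted p = 0.99), and its 95% confidence interval, -0.065 to 0.15, reached from 0.96-fold to 1.11-fold.

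Gas1, a co-receptor gene whose product is tethered to the cell surface by a lipid anchor, stood at 0.0041 and -0.11 in Het and at 0.015 and -0.0041 in cKO. Its low value was in Het replicate 2, and the other 3 arrays were nearly level. The difference was 0.058 ± 0.055 (SE; limma, adjusted p = 0.99), with overlapping groups, and 0.0011 without Het replicate 2.

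Smo, the gene of the transmembrane protein that carries the signal inward, read 0.0078 and 0.29 in the Het arrays and -0.0078 and -0.41 in the cKO arrays. Both cKO arrays were below both Het arrays, but cKO replicate 1 and Het replicate 1 were only 0.016 apart. The difference was -0.36 ± 0.19 (SE, n = 2 arrays per group; limma, adjusted p = 0.97), with an SD of 0.20 in Het and 0.28 in cKO. The array with the lowest Smo value was the one with the highest Ptch1 and Hhip values. Without cKO replicate 2 the difference was -0.16, and without cKO replicate 1 it was -0.56.

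Of the GLI factors, Gli1, an activator whose transcription depends on the pathway, read -0.17 and 0.044 in the Het arrays and -0.044 and 0.13 in the cKO arrays. The order of the arrays was that of Ptch1, with Het replicate 1 lowest and cKO replicate 2 highest, over a narrower range of 0.30 against 0.76 for Ptch1. The groups overlapped, and the difference was 0.11 ± 0.11 (SE; limma, adjusted p = 0.99). Without Het replicate 1 it was 0.0017, and without cKO replicate 2 it was 0.017.

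Gli2, which encodes the main activator acting downstream of Smoothened, stood at -0.027 and 0.027 in Het and at 0.15 and -0.050 in cKO. The highest and the lowest array were both cKO arrays. The difference was 0.049 ± 0.084 (SE; limma, adjusted p = 0.996) and changed sign to -0.050 without cKO replicate 1.

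Gli3, the gene of the factor that in its processed form is the main repressor of the pathway, stood at 0.12 and -0.086 in Het and at 0.040 and -0.040 in cKO. Here both extremes were Het arrays and the cKO values lay between them. The difference was -0.018 ± 0.090 (SE; limma, adjusted p = 1), smaller than that of 77.6% of all genes, and its sign changed without Het replicate 1 (0.086), without cKO replicate 2 (0.022) and with quantile normalization (0.014).

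**Figure D2:**
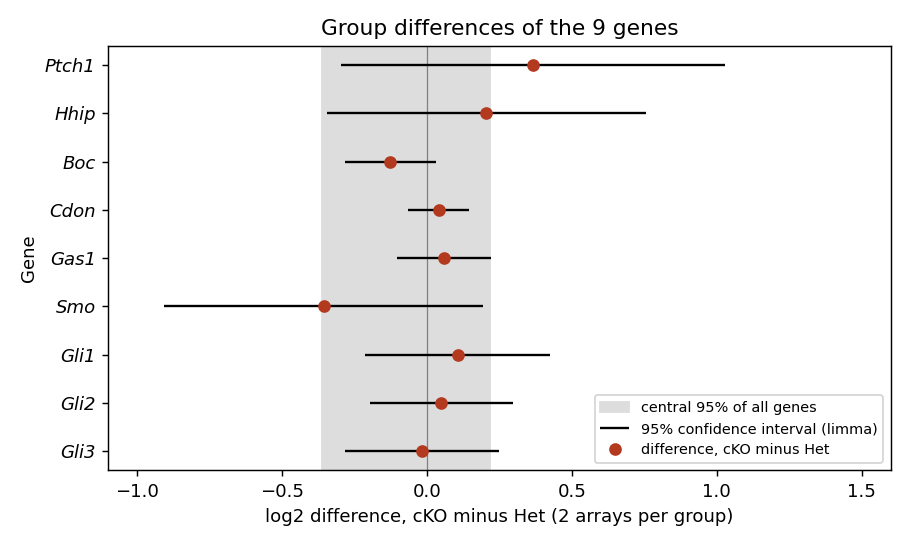
Log2 difference, cKO minus Het, of each of the 9 genes (points) with its 95% confidence interval from limma (lines), 2 arrays per group. The grey band spans the central 95% of the differences of all genes, from -0.36 to 0.22. Every interval includes 0, and the interval of Ptch1 is the widest, from -0.30 to 1.03.

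The intervals show what these 4 arrays could resolve. For Ptch1 the 95% confidence interval of the difference ran from 0.81-fold to 2.04-fold, for Hhip from 0.79-fold to 1.69-fold and for Smo from 0.53-fold to 1.14-fold. For Gli1, Gli2 and Gli3 the upper bounds were 1.34-fold, 1.23-fold and 1.19-fold and the lower bounds 0.86-fold, 0.87-fold and 0.82-fold. A doubling of the array signal of a GLI factor thus lay outside its interval, and a doubling of that of Ptch1 did not. Each interval is for a single gene, without adjustment for the number of genes. Because levels, detection and background cannot be read, the intervals do not exclude a doubling of GLI RNA itself. An adjusted p near 1 does not show that the groups were alike. An exact permutation test of 2 arrays against 2 cannot give a two-sided p below 0.333.

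Group separation among the 9 genes was close to that of genes in general. Groups did not overlap in 3 of the 9, Boc and Smo being lower and Cdon higher in both cKO arrays, while 33.5% of all genes did not overlap. By direction, 15.6% of all genes were lower and 17.8% higher in both cKO arrays. In 7 of the 9 genes the 2 arrays of a group lay further apart than the group means, Boc and Cdon being the exceptions, and the same held for 78.3% of all genes. Left out in turn, Het replicates 1 and 2 and cKO replicates 1 and 2 gave 6, 6, 7 and 5 of 9 genes without overlap. With 3 arrays that share is higher for all genes too, at 62.0%, 67.4%, 71.1% and 65.9% in the same order.

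**Figure D3:**
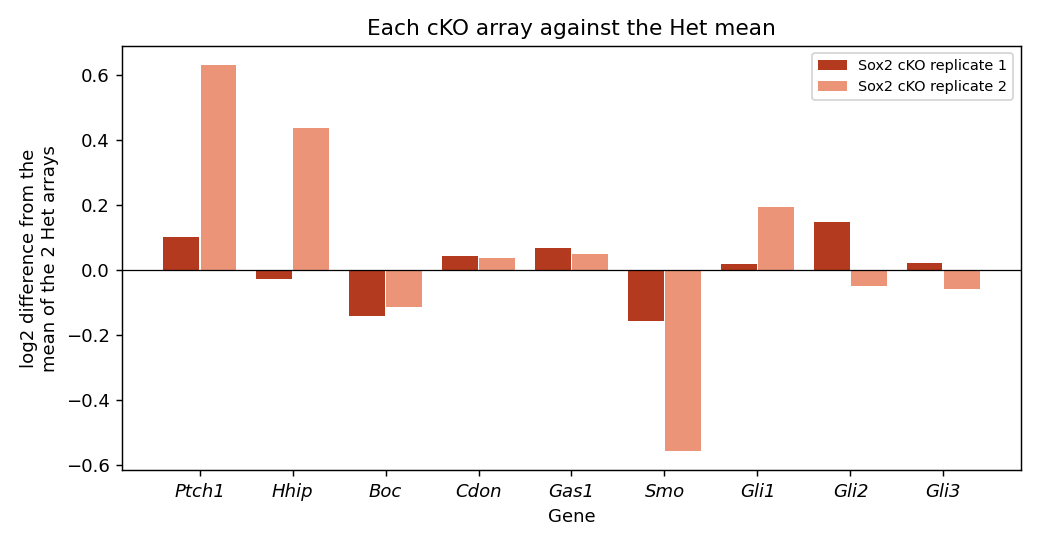
Log2 difference of each single cKO array from the mean of the 2 Het arrays (y axis) for the 9 genes (x axis); bars are single values without error. For Ptch1, Hhip and Smo the bar of cKO replicate 2 is at 0.63, 0.44 and -0.56 and that of cKO replicate 1 at 0.10, -0.027 and -0.16.

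Taken array by array, cKO replicate 1 was within 0.16 of the Het mean for each of the 9 genes, Smo at -0.16 and Gli2 at 0.15 being the furthest. In cKO replicate 2 the distance was 0.63 for Ptch1, 0.44 for Hhip and -0.56 for Smo, and at most 0.20 for the other 6. Gli1 was 0.20 above the Het mean in this array and 0.017 above it in cKO replicate 1. Over all genes, cKO replicate 2 was the highest array in 31.1%, the largest share of the 4 arrays, against 33.3% of the 9. It was the lowest array in 25.6% of all genes, against 22.2% of the 9. The SD over all genes of the difference between 2 arrays was 0.184 to 0.242 in pairs with cKO replicate 2. In the other pairs it was 0.172 to 0.181. The 2 cKO arrays lay on the same side of the Het mean for Ptch1, Boc, Cdon, Gas1, Smo and Gli1 and on opposite sides for Hhip, Gli2 and Gli3. The widest spread over the 4 arrays was that of Ptch1, 0.76, exceeded by 2.91% of all genes. Smo followed with 0.70 and Hhip with 0.51, exceeded by 3.90% and 8.83% of all genes.

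Marker lists of other cell types and of proliferation also differed between single arrays. The 11 measured proliferation genes had a median of 0.034 and -0.025 in Het replicates 1 and 2, 0.15 in cKO replicate 1 and -0.34 in cKO replicate 2, the array in which Ptch1 and Hhip were high and Smo low. Of these genes 9 were lower in cKO on average. The 14 keratinocyte and hair matrix markers had a median of 0.41 in Het replicate 2, the array in which Smo was highest, and of -0.059, -0.018 and -0.0050 in Het replicate 1 and cKO replicates 1 and 2. Of these markers 12 were lower in cKO on average. The 12 dermal fibroblast markers were lower in cKO in 11 cases, with medians of 0.041 and 0.13 in Het and -0.022 and -0.087 in cKO. The 14 papilla markers, Sox2 and Itga9 among them, had medians of 0.16 and -0.060 in Het and -0.041 and 0.054 in cKO. Melanocyte, Schwann, sheath, endothelial and immune markers had array medians between -0.11 and 0.18. Among the 7 measured Schwann markers, 5 had a lower and 2 a higher mean in cKO. Egr2 and Fabp7, named after their values were seen, differed by -1.35 and -0.82 without overlap. Erbb3, at -0.12, also had groups without overlap. S100b, at -0.36, and Sox10, at -0.11, overlapped between the groups. Mbp, at 0.039, and Ngfr, at 0.090, went the other way, also with overlap. Groups did not overlap in 8 of 14 papilla, 2 of 14 keratinocyte, 6 of 12 fibroblast, 0 of 8 melanocyte and 3 of 7 Schwann markers. The same held for 3 of 8 sheath, 5 of 8 endothelial, 6 of 8 immune and 2 of 11 proliferation genes. Over all genes 33.5% did not overlap, and 47.7% had a lower mean in cKO. The 8 papilla markers, with the deleted gene Sox2 among them, were 4 higher and 4 lower in cKO. The part of any of these marker lists in the values of the 9 genes was not tested.

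The genes whose pattern was closest to that of Ptch1 were taken as those with the smallest Euclidean distance over the 4 arrays. They were Arhgap42, at a distance of 0.073, Spry1, a feedback inhibitor of receptor tyrosine kinase signalling, at 0.078, and Ptbp2, a splicing regulator gene, at 0.11. Spry1 stood at -0.20 and 0.054 in Het and at -0.054 and 0.49 in cKO. With 4 centred values per gene the likeness is a description only.

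The rest of the pathway was followed in 5 lists with 57 measured genes. None passed limma's test over all genes, and 5 lay under an unadjusted p of 0.05, where all genes had a share of 5.28%. Of the 57, 31 had a higher and 26 a lower mean in cKO, with a median difference of 0.0071, and in 15 the groups did not overlap, where all genes had a share of 33.5%. The counts without overlap in the lists below are to be read against the same 33.5%. In 45 of them, 78.9%, the 2 arrays of a group lay further apart than the group means.

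Among the ligands and the proteins that release them, 6 of 8 had a higher mean in cKO, and the list's median difference was 0.027. The ligand gene Shh was at -0.12 and 0.071 in Het and at -0.023 and 0.023 in cKO, with overlapping groups. The 2 genes of this list with the largest differences without overlap were both lower in cKO. Scube3, which encodes a secreted glycoprotein of a family that helps to carry Hedgehog, stood at 0.31 and 0.070 in Het and at -0.11 and -0.070 in cKO, a difference of -0.28 ± 0.098 (SE; limma, adjusted p = 0.94). Disp1, whose product Dispatched releases the lipid-modified ligand from the cell, stood at 0.15 and 0.095 in Het and at -0.21 and -0.063 in cKO, a difference of -0.26 ± 0.070 (SE; limma, adjusted p = 0.94). These Disp1 values are means of 2 probe sets that differed unequally, the one with the larger difference giving -0.39 alone.

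Of the other surface proteins that bind Hedgehog, the glypicans and the endocytic receptor Lrp2, 5 of 6 were measured. Their differences ran from -0.056 to 0.021, and 4 of 5 were below 0. Only Gpc5 among these 5 had groups without overlap, at 0.021 ± 0.037 (SE; limma, adjusted p = 0.997), which is smaller than its own SE.

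Between Smoothened and the GLI factors, 16 of 18 listed genes were measured, 8 higher and 8 lower in cKO, with a median difference of 0.0011. Groups did not overlap in 2 of these 16 (12.5%). Cul3, which encodes a ubiquitin ligase scaffold that acts on GLI proteins with the adaptor SPOP, was at -0.055 and -0.065 in Het and at 0.055 and 0.095 in cKO, a difference of 0.13 ± 0.038 (SE; limma, adjusted p = 0.94). Btrc, the gene of the F-box protein that directs GLI3 to processing, differed by -0.053 ± 0.041. Sufu, the gene of the cytoplasmic GLI inhibitor, overlapped between the groups, with a difference of -0.053 ± 0.064.

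Of the genes of the primary cilium 13 of 14 were measured, 6 higher and 7 lower in cKO, and 4 (30.8%) had groups without overlap. Ift140, a subunit gene of the retrograde transport complex, stood at 0.093 and 0.18 in Het and at -0.13 and -0.093 in cKO, a difference of -0.25 ± 0.049 (SE; limma, adjusted p = 0.90). Tulp3, which encodes an adaptor that brings membrane receptors into the cilium, stood at 0.11 and 0.067 in Het and at -0.22 and -0.067 in cKO, a difference of -0.24 ± 0.071 (SE; limma, adjusted p = 0.94).

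Among the other genes known to respond to Hedgehog, 10 of 15 had a higher and 5 a lower mean in cKO, and 5 (33.3%) had groups without overlap. The cyclin gene Ccnd2 had the largest difference of the 57 genes. It stood at 0.35 and 0.38 in Het and at -0.35 and -0.57 in cKO, a difference of -0.83 ± 0.090 (SE; limma, adjusted p = 0.90), or 1.78-fold lower. Its direction was opposite to the mean differences of Gli1, Ptch1 and Hhip, in each of which the groups overlapped. Snai1, a transcriptional repressor gene, stood at -0.019 and -0.21 in Het and at 0.15 and 0.019 in cKO, a difference of 0.20 ± 0.095 (SE; limma, adjusted p = 0.96). The related cyclin gene Ccnd1, at 0.11 ± 0.15, and the papilla signals Bmp4, at 0.16 ± 0.15, and Nog, at -0.043 ± 0.044, overlapped between the groups.

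**Figure D4:**
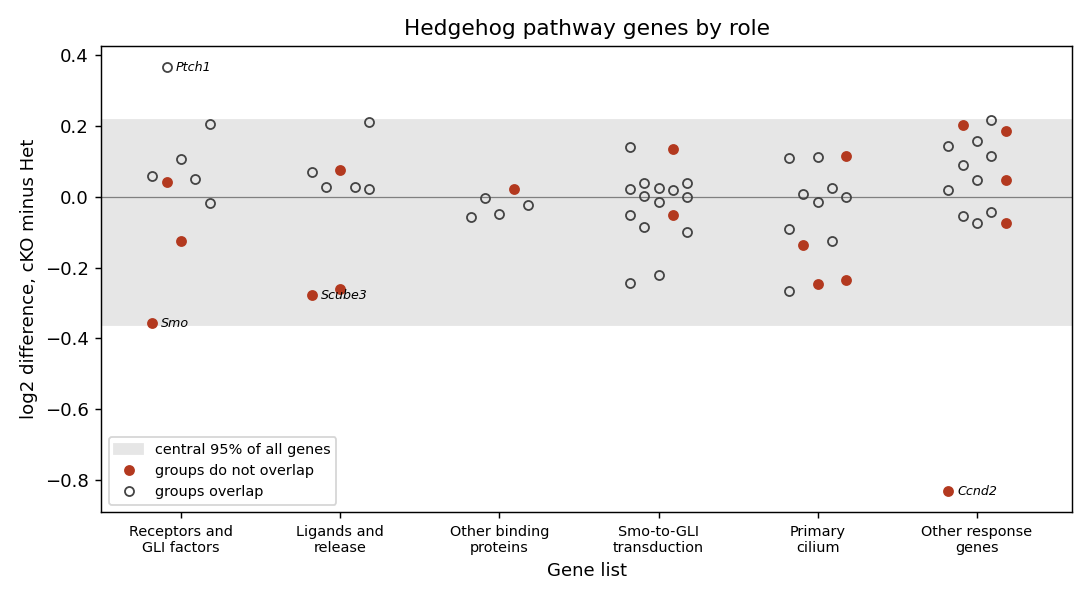
Log2 difference, cKO minus Het (y axis), of every measured gene of the 6 lists (x axis); filled points have groups that do not overlap, open points groups that do. The grey band spans the central 95% of all genes, and Ccnd2, at -0.83, lies furthest outside it.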

How the data were processed

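RNA of 4 sorted samples was amplified, labelled with biotin and hybridised to 1-colour arrays, per the labels' protocols. The submitters' processing notes name RMA as the step by which the authors obtained the deposited log2 values. Log base, build and software version are not given in the sources used; log2 was assumed. In the deposited table the median of each of the 28853 probe sets over the 4 arrays was 0 within 1e-06, so levels, detection and background cannot be read, and the planned filter on brightness was replaced by one on SD. Of the probe sets 21789 named 1 gene; these were averaged per gene.

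The groups were compared with limma 3.58.1 under R 4.3.3 (lmFit, eBayes, group as the only term, two-sided, 2 residual and 1.52 prior degrees of freedom) over 19938 genes, with Benjamini-Hochberg adjustment and a threshold of 0.05. The script was tested on simulated data. The members and lists were chosen with earlier results of these data known. Genes named were the 9 members, Sox2, Itga9, Xist, Eif2s3y and the 2 largest differences without overlap in each pathway list. The 3 patterns nearest to the member that differed most were also named. Shh, Sufu, Ccnd1, Bmp4, Nog and the single Schwann markers were added after their values were seen. Alternatives were probe sets tested singly, a robust prior, no moderation, a replicate term, a filter on SD and each array left out. Arrays were also re-centred or quantile-normalized, both starting from the already centred values. Figures were drawn with matplotlib 3.10.9. Precision is limited by the number of arrays.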

Additional observations from a re-analysis of the deposited data

How the results depend on the processing

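Re-centring, quantile normalization and leaving out single arrays can change a difference. Of the 54 values these gave for the 9 genes 5 changed sign, in Gli2, Gli3 and Hhip. For the 9 genes, each with 1 probe set, the remaining alternatives change the test and not the difference. Among the other pathway genes, probe sets tested singly took Disp1 from -0.26 to -0.39. The filter on SD changed which genes entered a median or count. No member passed under any alternative. Quantile normalization was run on values already centred per probe set, so it evened out the deviations of the arrays and not their intensities. It moved the median difference of the 9 genes from 0.049 to 0.059 and turned Gli3 to 0.014. That of the 57 other pathway genes moved from 0.0071 to 0.022. The SE of Sox2 rose under this setting from 0.056 to 0.18. The filter that kept the 9969 genes of larger SD over the 4 arrays, and is not independent of the test because a group difference raises the SD, kept 7 of the 9 members and gave 116 calls over all genes in place of 0. Of these 1 was among the 38 pathway genes kept, Ccnd2 (-0.83, adjusted p = 8.1e-04, limma); Sox2 also passed (-1.81). These calls are no support for either gene, and the median of the pathway genes was -0.0077. With single arrays left out, the median of the members ranged from 0.022 to 0.053 and that of the other pathway genes from -0.010 to 0.014. Groups did not overlap in 5 to 7 of the members and 31 to 41 of the 57 other pathway genes. Over all genes the share in these settings was 62.0% to 71.1%, where 3 arrays separate more readily than 4. Over the same settings Gli2 ranged from -0.050 to 0.15, Gli3 from -0.12 to 0.086 and Hhip from -0.027 to 0.44. The replicate numbers pair the samples by number only (the deviations of same-numbered arrays had a correlation of 0.311 over probe sets, from 2 pairs). With the replicate block 0 genes were called, with 1625 under an unadjusted p of 0.05 against 1053. The median of the members stayed at 0.049, because the block cannot change a difference in this balanced layout. The SE fell for Ptch1, from 0.23 to 0.089, for Gli1, from 0.11 to 0.041, and for Gli3 and Gas1. It rose for the other members, for Smo from 0.19 to 0.21. Background correction and a scan block were not run, because the table holds RMA values and no scan information.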
